A study of Mus musculus with 15 samples.

Results

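The genes described here are 32 genes of the response to low oxygen and of glycolysis. They were taken as every non-control probe whose gene name in the array files is 1 of these 32 names, which gave 78 of the 56605 distinct probes and 32 of the 37074 gene names on the array. The samples were 15 spontaneous mammary tumours of MMTV-PyMT mice, each hybridised to a 1-colour Agilent expression array. All 15 came from mice killed at 20 weeks of age and all carried the PyMT transgene, the polyoma middle T oncogene under the MMTV promoter, which is active mainly in mammary epithelium. The B6 group had 8 tumours of mice on the C57BL/6 (B6) background. The Wsh group had 7 tumours of mice with the Wsh background, the usual name of the Kit W-sh allele, an inversion beside the Kit gene that leaves adult mice without mast cells. By its title the study asks how mast cells affect breast cancer cells, a question that the comparison of Wsh with B6 addresses, although the groups also differ in the inversion itself and in any other DNA of the backgrounds. Whether any tumours came from the same mouse is not stated in the labels, and p-values therefore reflect only how these 15 samples vary, which may in part be technical.

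Cells short of oxygen stabilise the hypoxia-inducible factors (HIFs), transcription factors that are otherwise hydroxylated by the Egln enzymes and destroyed through the Vhl protein. HIF target genes make angiogenic factors such as Vegfa, glucose and lactate transporters, and most enzymes of glycolysis, the pathway that splits glucose to pyruvate. In solid tumours these genes are known as markers of poorly perfused areas and of a high use of glucose. HIF binds DNA at the core letters ACGTG or GCGTG, which read CACGT or CACGC on the opposite strand.

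To show the regulatory sequence behind the genes that the results turn on, the 250 bases before the annotated start of 6 of them are printed here, 5′ to 3′ on the gene's own strand, with each of the 4 motif spellings in capitals. Pgk1 is the gene that the others are set against below, Slc2a1 and Ddit4 are among those with the highest coefficients to it, Car9 and Slc16a3 had the widest ranges, and Bnip3 is among those with a coefficient below 0. The windows are RefSeq's on GRCm38.p6, namely chrX:106186850-106187099 (plus strand) for Pgk1, chr4:119108495-119108744 (plus) for Slc2a1, chr10:59951771-59952020 (minus) for Ddit4, chr4:43506776-43507025 (plus) for Car9, chr11:120948817-120949066 (plus) for Slc16a3 and chr7:138909507-138909756 (minus) for Bnip3.
Pgk1: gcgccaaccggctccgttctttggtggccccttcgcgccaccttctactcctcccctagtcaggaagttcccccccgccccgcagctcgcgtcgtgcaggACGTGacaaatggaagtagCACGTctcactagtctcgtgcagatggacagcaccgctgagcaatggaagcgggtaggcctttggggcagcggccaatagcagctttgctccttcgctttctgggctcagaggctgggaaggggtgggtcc
Slc2a1: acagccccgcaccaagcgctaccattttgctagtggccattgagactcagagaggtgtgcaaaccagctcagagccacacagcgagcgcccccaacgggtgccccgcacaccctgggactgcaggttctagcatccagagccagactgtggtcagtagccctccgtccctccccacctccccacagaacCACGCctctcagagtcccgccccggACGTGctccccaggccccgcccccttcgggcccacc
Ddit4: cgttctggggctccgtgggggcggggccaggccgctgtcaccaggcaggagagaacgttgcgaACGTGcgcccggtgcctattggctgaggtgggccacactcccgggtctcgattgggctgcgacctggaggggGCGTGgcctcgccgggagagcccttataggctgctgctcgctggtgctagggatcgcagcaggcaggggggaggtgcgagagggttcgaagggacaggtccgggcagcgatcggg
Car9: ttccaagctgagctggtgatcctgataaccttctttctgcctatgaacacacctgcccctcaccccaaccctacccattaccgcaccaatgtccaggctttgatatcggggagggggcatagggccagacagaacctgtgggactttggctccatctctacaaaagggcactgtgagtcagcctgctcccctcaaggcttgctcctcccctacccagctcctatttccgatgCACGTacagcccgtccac
Slc16a3: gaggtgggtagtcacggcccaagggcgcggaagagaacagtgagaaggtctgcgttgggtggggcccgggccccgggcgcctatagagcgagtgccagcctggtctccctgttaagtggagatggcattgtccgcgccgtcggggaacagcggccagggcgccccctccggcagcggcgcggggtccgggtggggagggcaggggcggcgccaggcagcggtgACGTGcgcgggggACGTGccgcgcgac
Bnip3: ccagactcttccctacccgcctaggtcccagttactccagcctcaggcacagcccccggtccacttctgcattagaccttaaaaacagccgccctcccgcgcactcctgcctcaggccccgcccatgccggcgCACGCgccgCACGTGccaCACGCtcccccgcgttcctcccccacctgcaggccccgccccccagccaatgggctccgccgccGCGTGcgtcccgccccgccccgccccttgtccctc

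Each of the 6 windows held at least 1 motif. In Car9 the only match was CACGT, beginning 18 bases before the start, and Slc16a3 had ACGTG at 27 and 14 bases before it. Slc2a1 had CACGC at 61 and ACGTG at 36 bases, Pgk1 had ACGTG at 150 and CACGT at 131, and Ddit4 had ACGTG at 187 and GCGTG at 115. Bnip3 had 5 matches, of which the CACGT at 108 bases overlaps the next ACGTG in the 1 palindrome CACGTG. Of the 32 genes 31 matched RefSeq's promoter table, Ndrg1 being the unmatched one, with 44 windows in all because several genes have more than 1 start. A motif was present in 35 of the 44 (79.5%), against 38.6% of all 32851 windows in the table. Some of the 44 overlap, such as windows of Eno1 and of Aldoa that share motifs. Of the 31 genes 29 had a motif in at least 1 window, all but Gpi1 and Tpi1. The same share over all genes is not given. These counts are a description. The median GC content was 62.8% in these 44 windows and 52.4% over all, and its part in the counts was not tested. A match is not a shown binding site.

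All 32 genes were measured on every array. The probe standing for each gene, the kept probe of highest mean, was well above background on all 15 arrays. Values are log2 of the processed signal over the array's own 75th percentile, so 0 is a signal at that percentile, and probes of different genes cannot be ranked against each other. Between 55.7% and 73.4% of the non-control spots of an array were well above background, and precision is limited by how many arrays there are. The tissue label was checked with 8 luminal epithelial markers, including Krt8, Epcam and Cdh1, all well above background on all 15 arrays. Skeletal muscle transcripts were high on 5 arrays (B6 replicate 4 and Wsh replicates 1, 3, 4 and 5), and the mean of the muscle markers lay between -3.77 and 1.32 in B6 and between -3.87 and 4.50 in Wsh. For the adipocyte markers the mean lay between -2.33 (replicate 3) and 3.77 (replicate 7) in B6 and between 0.76 and 3.61 in Wsh. Of the 12 adipocyte markers 11 had a higher mean in Wsh and 0 passed the test between groups. In these whole-tumour samples, fewer cells of a type and less RNA per cell cannot be told apart.

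No hypoxia or glycolysis gene passed the test of a difference between Wsh and B6 tumours. In limma's test over 22344 genes, 0 of the 32 passed at an adjusted p of 0.05, against 75 of all genes tested (0.336%). At an unadjusted p of 0.05 the count was also 0 of 32, against 10.4% of all genes, and no member had groups that did not overlap, against 0.358% of all genes. The log2 difference, Wsh minus B6, was above 0 for 14 members and below 0 for 18, with a median of -0.0087 against -0.0080 over all genes. This split depends on the scaling, with 20 above 0 after quantile normalization, 20 in the authors' deposited log2 values and 9 after median scaling, which moved the median of all genes to -0.11. The differences ran from -0.41 for Egln3 to 0.82 for Slc16a3. How closely the data bound a difference varied widely between genes.

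**Figure D1:**
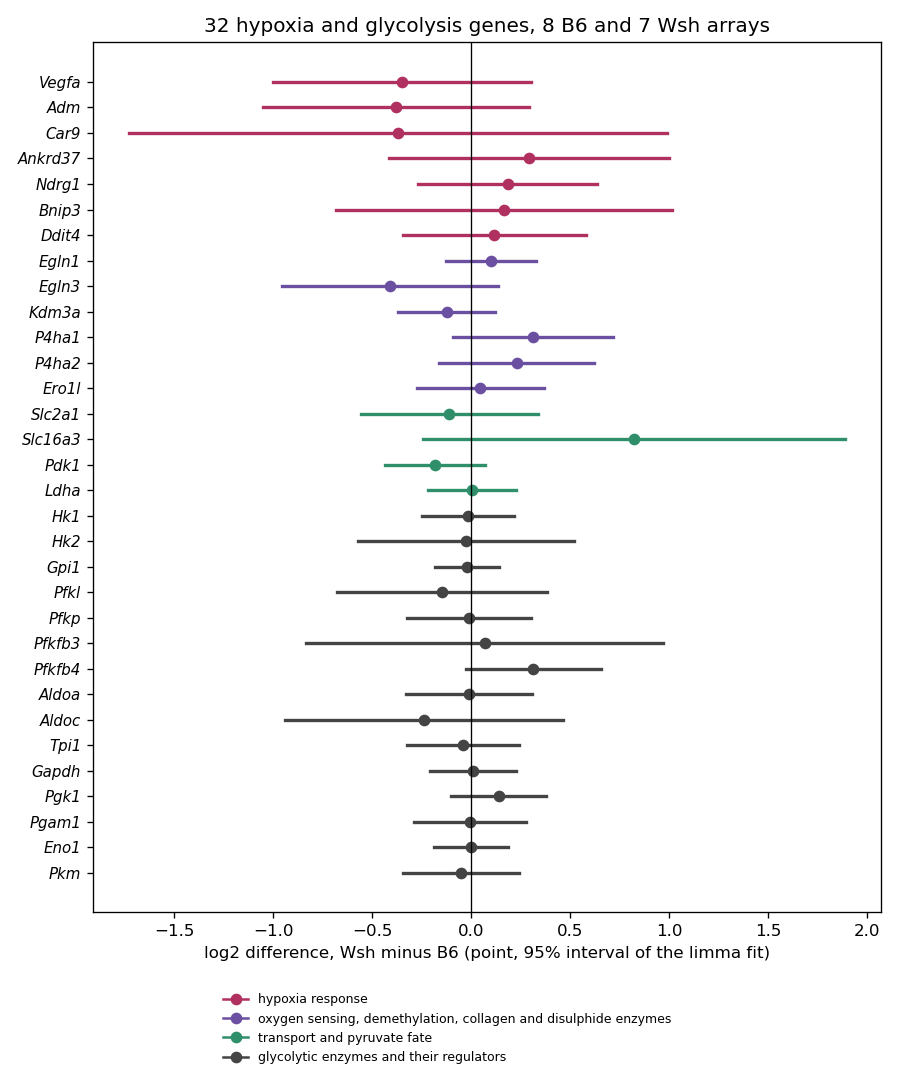
Log2 difference between Wsh and B6 tumours (x axis) for each of the 32 genes (y axis, coloured by role), with points for the limma estimate and bars for its 95% interval over 8 B6 and 7 Wsh arrays. Every interval includes 0, the narrowest being that of Gpi1 (-0.18 to 0.14) and the widest that of Car9 (-1.73 to 0.99).

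Among the secreted and cell-surface products of the hypoxia response, Vegfa, the main angiogenic growth factor (probe at chr17:46154387-46154446, build mm9), had a lowest, median and highest value of 0.14, 0.65 and 1.23 in B6 and of -0.65, 0.15 and 1.74 in Wsh. The Wsh values lay on both sides of the B6 range, with Wsh replicates 3, 5 and 7 below it and replicate 2 above it. The difference was -0.35 (SE 0.31, limma adjusted p = 0.759). Adm, the vasodilator peptide adrenomedullin (chr7:117773088-117773147), had -1.82, -1.24 and -0.79 in B6 and -2.36, -2.08 and -0.43 in Wsh. Wsh replicates 1 and 2 exceeded every B6 tumour and Wsh replicates 3, 4, 6 and 7 lay below every B6 tumour. The difference was -0.38 (SE 0.32, limma adjusted p = 0.744). Car9, the carbonic anhydrase that helps cells export acid (chr4:43526518-43526577), had -2.30, 0.34 and 2.23 in B6 and -1.66, 0.18 and 0.95 in Wsh. All Wsh values fell inside the B6 range. The difference was -0.37 (SE 0.64, limma adjusted p = 0.903), with a 95% interval reaching from 3.32-fold lower to 1.98-fold higher in Wsh.

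The intracellular members of the same response gave smaller or equally uncertain differences. Ankrd37, an ankyrin repeat protein encoded by a known HIF target gene (chr8:47082404-47082463), had -2.98, -2.43 and -1.29 in B6 and -2.48, -2.25 and -0.29 in Wsh, with a difference of 0.29 (SE 0.33, limma adjusted p = 0.827). Only Wsh replicate 2 lay outside the B6 range, far above it. Bnip3, which promotes the removal of mitochondria (chr7:146082760-146082819), had 1.33, 1.82 and 4.16 in B6 and 1.34, 2.26 and 3.64 in Wsh, with every Wsh tumour inside the B6 range and a difference of 0.17 (SE 0.40, limma adjusted p = 0.933). Ndrg1, a differentiation and stress gene, differed by 0.18 (SE 0.21), and Ddit4, an inhibitor of mTORC1 also known as REDD1, by 0.12 (SE 0.22).

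Of the enzymes that use oxygen, Egln3, a HIF prolyl hydroxylase and itself a HIF target (chr12:55280953-55281012), had a lowest, median and highest value of 1.17, 1.92 and 2.64 in B6 and of 0.83, 1.51 and 2.36 in Wsh. The groups overlapped over most of their range, with Wsh replicate 1 alone below B6, and the difference was -0.41 (SE 0.26, limma adjusted p = 0.634). Both collagen prolyl hydroxylases had a difference above 0 that did not pass. P4ha1 (chr10:58834272-58834331) had -2.94, -2.45 and -2.35 in B6 and -2.86, -2.21 and -1.41 in Wsh, with 4 of the 7 Wsh tumours above every B6 tumour and a difference of 0.31 (SE 0.19, limma adjusted p = 0.620). P4ha2 (chr11:53945032-53945091) had 0.06, 0.25 and 1.08 in B6 and 0.33, 0.59 and 1.31 in Wsh, with a difference of 0.23 (SE 0.18, limma adjusted p = 0.730). Only Wsh replicate 2 exceeded the B6 range of P4ha2. The histone demethylase Kdm3a (-0.12, SE 0.11), the hydroxylase Egln1 (0.10, SE 0.11) and the disulphide oxidase Ero1l (0.05, SE 0.15) all had intervals within 0.37 of 0 on the log2 scale.

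Of the genes of transport and the fate of pyruvate, Slc16a3, the lactate exporter MCT4 (chr11:120820023-120820082), had a lowest, median and highest value of -2.92, -1.84 and -0.95 in B6 and of -2.76, -1.44 and 1.48 in Wsh. Wsh replicates 2, 3 and 4 lay above every B6 tumour, while the other 4 Wsh tumours fell within the B6 range. The difference of 0.82 (SE 0.50), or 1.77-fold, did not pass (limma adjusted p = 0.620). It rests on Wsh replicate 2, without which it was 0.39, smaller in size than that of Vegfa (-0.59), Adm (-0.58), Car9 (-0.54) or Egln3 (-0.52). The differences of P4ha1, P4ha2 and Ankrd37 were 0.17, 0.12 and 0.01 without this tumour. Without the 5 arrays high in skeletal muscle transcripts, and with Wsh replicate 2 kept, they were 0.41, 0.30 and 0.74. That of Slc16a3 was then 1.26. Pdk1, the kinase that keeps pyruvate out of mitochondria (chr2:71739926-71739985), had 2.27, 2.59 and 2.94 in B6 and 2.18, 2.43 and 2.66 in Wsh, with a difference of -0.18 (SE 0.12, limma adjusted p = 0.652). Wsh replicate 7 lay below the B6 range and the other Wsh tumours within it. The glucose transporter Slc2a1 (GLUT1) differed by -0.11 (SE 0.21), and Ldha, which turns pyruvate into lactate, by 0.0031 (SE 0.11) with a 95% interval from -0.22 to 0.23.

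Of the 15 glycolytic enzymes and regulators, 4 had a difference above 0 and 11 below it. Pfkfb4, which makes the activator of phosphofructokinase (chr9:108934652-108934711), had the lowest p of all 32 members. Its lowest, median and highest values were -1.20, -0.67 and -0.14 in B6 and -0.71, -0.40 and 0.13 in Wsh, with a difference of 0.31 (SE 0.16, unadjusted p = 0.0697, limma adjusted p = 0.531). Wsh replicates 1 and 3 were above every B6 tumour, and the rest overlapped. Pgk1, phosphoglycerate kinase (chrX:103398915-103398974), had 5.06, 5.32 and 5.89 in B6 and 5.29, 5.52 and 5.75 in Wsh, with every Wsh value inside the B6 range and a difference of 0.14 (SE 0.11, limma adjusted p = 0.734). Pfkfb3, the sister enzyme of Pfkfb4 (chr2:11393579-11393638), had 0.73, 1.52 and 3.77 in B6 and 0.71, 1.83 and 3.1 in Wsh, with a difference of 0.07 (SE 0.42, limma adjusted p = 0.974). The aldolase isozyme Aldoc (chr11:78140198-78140257) had 4.61, 6.12 and 6.73 in B6 and 4.68, 5.90 and 6.53 in Wsh, with a difference of -0.24 (SE 0.33, limma adjusted p = 0.866). For both of the last genes the SD within groups was larger than the difference.

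At the probe standing for each gene, the core enzymes of glycolysis were held to narrow bounds. The 95% interval of the difference was -0.21 to 0.23 for Gapdh, -0.19 to 0.19 for the enolase Eno1, -0.18 to 0.14 for the isomerase Gpi1 and -0.25 to 0.22 for hexokinase Hk1, which allows changes of at most 1.19-fold in either direction for these 4. Intervals stayed within 0.35 of 0 for Aldoa, Tpi1, Pgam1, Pfkp and pyruvate kinase Pkm. Hexokinase Hk2 (-0.57 to 0.52) and the liver-type phosphofructokinase Pfkl (-0.68 to 0.38) were less well bounded. Some other kept probes of the core enzymes gave wider bounds, such as a Gapdh probe (-0.32, SE 0.18) and an Eno1 probe (0.24, SE 0.17).

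The same members differed strongly in how much they varied between tumours of 1 group. Car9 had a within-group SD of 1.33 on the log2 scale, above 97.3% of all genes tested, and a 23.1-fold range over the 15 tumours. Slc16a3 followed with an SD of 1.04 and a 21.0-fold range. Pfkfb3 (SD 0.88, 8.33-fold), Bnip3 (0.83, 7.08-fold), Ankrd37 (0.69, 6.47-fold), Aldoc (0.68, 4.34-fold), Adm (0.65, 3.81-fold) and Vegfa (0.63, 5.25-fold) completed the 8 most variable. Gpi1 was at the other end, with an SD of 0.12 that exceeded only 1.81% of all genes and a 1.30-fold range. The SDs of Eno1 (0.15), Gapdh (0.19) and Ldha (0.19) exceeded those of 7.38%, 17.8% and 19.1% of genes. These SDs are those of the probe standing for each gene. Every other kept probe of Gpi1, Eno1, Gapdh and Ldha had a larger SD, up to 0.26, 0.34, 0.37 and 0.34. In Vegfa, Adm and Slc16a3 the SD was larger in Wsh (0.85, 0.86 and 1.38) than in B6 (0.34, 0.38 and 0.62), while 21 of the 32 members had the larger SD in B6, such as Car9 (1.52 against 1.07 in Wsh) and Ldha (0.24 against 0.10). These differences in spread were not tested, and the same tally over all genes is not given.

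**Figure D2:**
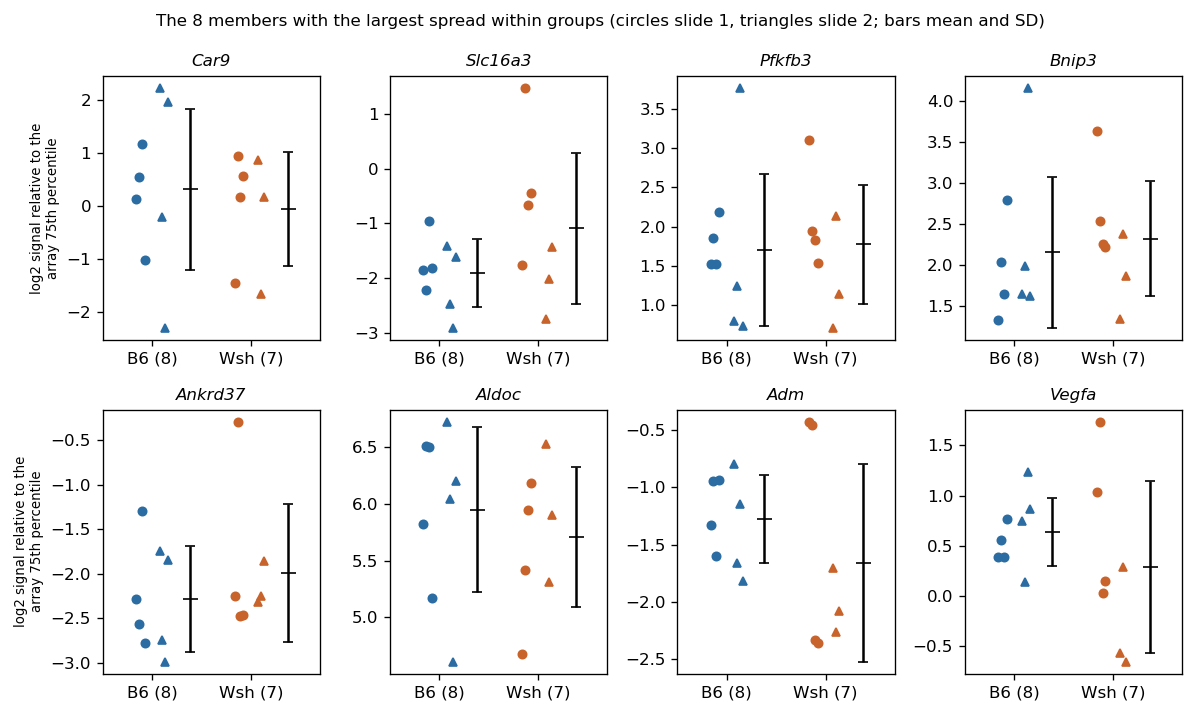
Log2 signal relative to the array's 75th percentile (y axes) of the 8 members with the largest within-group SD, in 8 B6 and 7 Wsh arrays (x axes). Circles are slide 1, triangles slide 2, and the bars give the mean and SD of each group; the groups overlap in every panel, and the Wsh tumour far above the others in Slc16a3 and Ankrd37 is replicate 2.

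High values gathered in a few tumours. Wsh replicate 2 had the highest value of all 15 tumours in 11 members, among them Vegfa, Ankrd37, P4ha1, P4ha2, Slc16a3, Tpi1 and Pgam1. B6 replicate 5 was highest in 7, including Car9, Gapdh, Ldha, Aldoc and Pfkp. B6 replicate 3, highest in 4 (Slc2a1, Pgk1, Pdk1 and Pkm), was among the top 3 tumours in 18 members, with B6 replicate 5 in 17 and Wsh replicate 2 in 16. B6 replicate 7 was lowest in 8 members yet highest in 4, which included Bnip3 and Pfkfb3. The same counts over all genes tested are not given, so this pattern is not shown to be particular to these members. These tumours differed in tissue content too. The adipocyte mean was -2.33 in B6 replicate 3, 0.62 in B6 replicate 5, 1.26 in Wsh replicate 2 and 3.77 in B6 replicate 7, and its part in the ranks of these tumours was not tested.

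**Figure D3:**
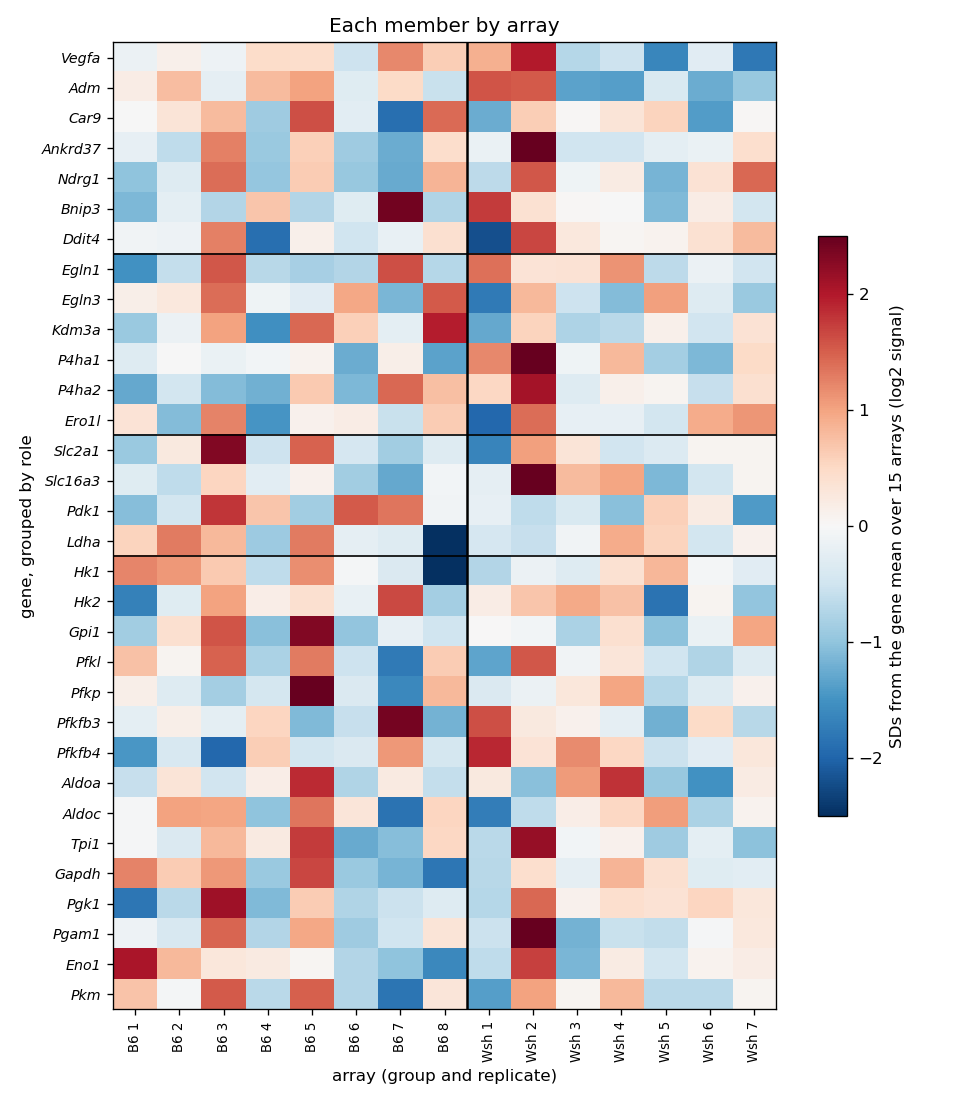
Each of the 32 members (rows, grouped by role) on each of the 15 arrays (columns, B6 left of the line and Wsh right of it), coloured by the number of SDs from the gene's mean over all arrays. Wsh replicate 2 is dark red in Ankrd37, P4ha1, P4ha2, Slc16a3, Tpi1 and Pgam1, and B6 replicate 7 is dark red in Bnip3 and Pfkfb3 but blue in Car9, Aldoc, Pfkl and Pkm.

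Correlations among the members were described after removing group means. The median Pearson correlation over the 496 pairs of members was 0.23, against 0.02 over pairs of all genes, and 24.4% of member pairs exceeded 0.5, against 9.80% of all pairs. By role the median was 0.35 among the hypoxia response genes, 0.27 among the glycolytic enzymes and regulators, 0.11 among the oxygen-using enzymes and 0.0043 among the genes of transport and pyruvate fate. These are descriptions over 15 arrays that share their scaling and tissue content. The genes outside the lists that most resembled the mean of the hypoxia response genes, by correlation over 15 arrays with group means removed, included Tchh (0.88), Cnfn (0.87), Sult2b1 (0.86), Maff (0.85), Defb14 (0.85) and Krtdap (0.83).

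Pgk1 served as a reference for tumour-to-tumour variation because it is a classic HIF target and a glycolytic enzyme at once. Of the other 31 members, 25 correlated positively with it over the 15 tumours, and 10 had an unadjusted permutation p under 0.05, all of them positive, against 9.70% of all genes. None of the 31 passed after adjustment over 22306 genes, and neither did any other gene (0%), so these relations are not established at this number of tumours. The count of 0 depends on the processing, since 8 members passed after median scaling, against 9.56% of all genes, and 1 with group means subtracted, against 0.0403%. It stayed 0 with normexp background correction, with quantile normalization and in the deposited log2 values. Slc2a1 had the highest correlation (r = 0.80, permutation p = 0.00031, adjusted p = 0.265; rho = 0.76, permutation p = 0.00156, adjusted p = 0.346). It was 0.83 on slide 1, 0.71 on slide 2, 0.93 in B6 and 0.88 in Wsh, and 0.67 without B6 replicates 3 and 1, the tumours farthest from the median of Pgk1. Ddit4 gave r = 0.70 (permutation p = 0.00373, adjusted p = 0.420; rho = 0.78, permutation p = 0.0009, adjusted p = 0.302), with 0.72 and 0.61 on the slides and 0.80 without those 2 tumours. Ndrg1 gave r = 0.75 (permutation p = 0.00091, adjusted p = 0.350; rho = 0.69, permutation p = 0.00606, adjusted p = 0.442), with 0.96 on slide 1, 0.46 on slide 2 and 0.69 without them. Ankrd37 gave r = 0.70 (permutation p = 0.00397, adjusted p = 0.429; rho = 0.65, permutation p = 0.00965, adjusted p = 0.454), with 0.73 and 0.65 on the slides and 0.76 without them. The others with an unadjusted p under 0.05 had smaller coefficients, r and rho being 0.67 and 0.58 for Pgam1, 0.60 and 0.56 for Ero1l, 0.57 and 0.61 for Gpi1, 0.56 and 0.54 for Slc16a3, 0.52 and 0.56 for Pkm, and 0.51 and 0.51 for Pfkl. Gpi1 had r = 0.38 without the same tumours. The count of 10 was 6 without Wsh replicate 2.

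**Figure D4:**
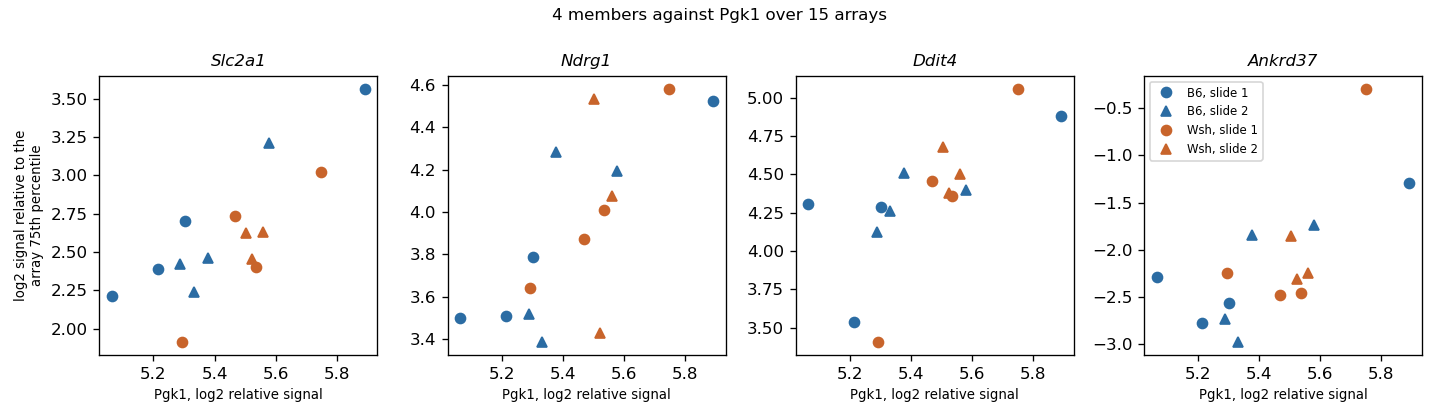
Slc2a1, Ndrg1, Ddit4 and Ankrd37 (y axes) against Pgk1 (x axes), all as log2 signal relative to the array's 75th percentile, 1 point per tumour, with colour for the group and shape for the slide. In all 4 panels the points rise from left to right (r between 0.70 and 0.80), and B6 replicate 3 is the rightmost point at a Pgk1 value of 5.89.

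Several well-known hypoxia markers did not follow Pgk1. Vegfa (r = -0.01) and Adm (-0.15) had correlations near 0, and those of Bnip3 (-0.18), Pfkfb3 (-0.23) and Pfkfb4 (-0.23) were below 0. In the authors' deposited log2 values these 5 coefficients were all above 0, reaching 0.40 for Vegfa, so their sign depends on the processing.

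The members were also set against adipocyte transcripts. Fibroblast and endothelial markers moved with these: B6 replicate 7, Wsh replicate 1 and B6 replicate 4 had the highest means of all 3 lists (fibroblast 4.28, 4.28 and 4.27; endothelium -0.24, 0.06 and -0.42), and B6 replicate 3 had the lowest adipocyte and fibroblast means (2.40 for fibroblast) and the second lowest endothelial mean (-1.35). Their part in the relations was not tested. Against the mean of 12 adipocyte markers (among them Adipoq, Plin1 and Fabp4), 9 of 32 members passed after adjustment over 22307 genes, against 12.1% of all genes, and 16 had an unadjusted p under 0.05, against 29.4%; this relation was examined after the data had been seen. Bnip3 was higher where adipocyte transcripts were higher (r = 0.72, permutation p = 0.00265, adjusted p = 0.0307; rho = 0.80, permutation p = 0.00062, adjusted p = 0.0138). So was Pfkfb4 (r = 0.80, permutation p = 0.00032, adjusted p = 0.00931; rho = 0.78, permutation p = 0.00074, adjusted p = 0.0152), and Pfkfb3 had r = 0.67, which missed the threshold (adjusted p = 0.0557), with rho = 0.81 (adjusted p = 0.0119). Without B6 replicates 3 and 7, the tumours farthest from the median adipocyte mean, the coefficients were 0.81 for Bnip3, 0.66 for Pfkfb4 and 0.87 for Pfkfb3.

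A further 7 members were lower where adipocyte transcripts were higher. Car9 had r = -0.72 (permutation p = 0.00195, adjusted p = 0.0261; rho = -0.83, permutation p = 0.00033, adjusted p = 0.0092) and Kdm3a had r = -0.72 (permutation p = 0.00224, adjusted p = 0.0284; rho = -0.80, permutation p = 0.00055, adjusted p = 0.0129). Both kept their size without B6 replicates 3 and 7 (-0.77 and -0.83), on slide 1 (-0.70 and -0.83) and on slide 2 (-0.93 and -0.73). Egln3 (-0.72), Pfkl (-0.73), Pkm (-0.70), Aldoc (-0.68) and Slc2a1 (-0.73) were the rest, with rho of -0.71, -0.74, -0.64, -0.70 and -0.63. The rho of Pkm and of Slc2a1 missed the threshold (permutation adjusted p = 0.0732 and 0.0814), and their r without B6 replicates 3 and 7 was -0.50 and -0.45. Pgk1 itself had r = -0.57 (rho = -0.46, permutation adjusted p = 0.120 and 0.229). Within groups, the coefficients of Pfkl and Pkm were -0.87 and -0.84 in B6 but -0.40 and -0.32 in Wsh, a contrast that was not tested. The count of 9 rests on 4 tumours, since it was 1 without Wsh replicate 1 (4.77% of all genes), 2 without B6 replicate 7 (6.21%), 5 without B6 replicate 4 (8.96%) and 5 without B6 replicate 5 (9.41%).

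Relations to luminal epithelial transcripts were also examined after the data had been seen. Against the mean of the 8 luminal markers, which was lowest in Wsh replicate 1 (2.74) and highest in B6 replicate 3 (3.70), 1 of 32 members passed, against 0.901% of all genes, and 12 had an unadjusted p under 0.05, against 23.6%. This was Pkm (r = 0.79, permutation p = 0.00043, adjusted p = 0.0492; rho = 0.76, permutation p = 0.00159, adjusted p = 0.184), with 0.92 and 0.63 on the slides and 0.69 without Wsh replicate 1 and B6 replicate 3. Pkm did not pass without any 1 of B6 replicates 1, 2, 3, 4, 5 and 7 or Wsh replicates 1, 3, 4 and 5.

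**Figure D5:**
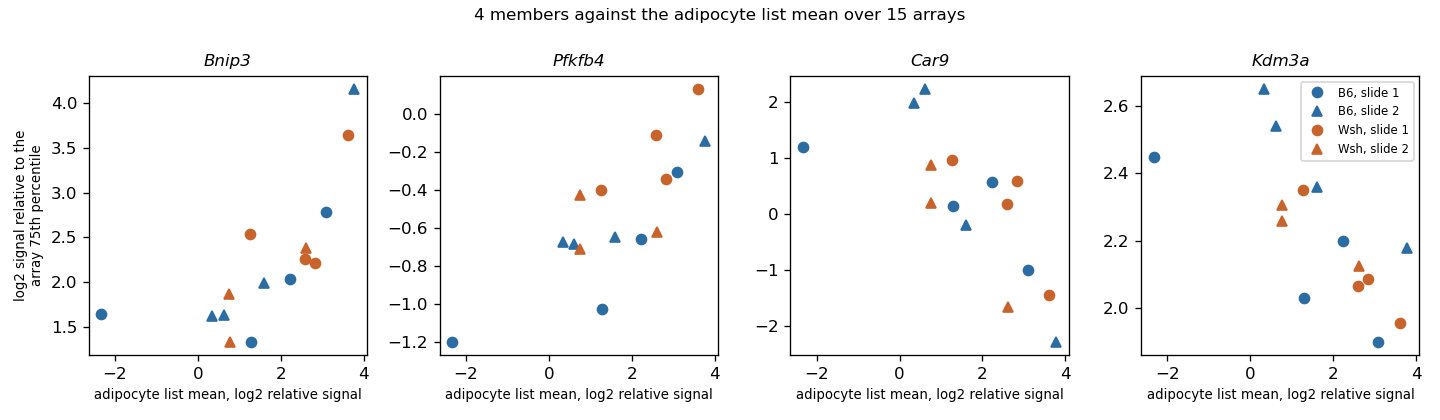
Bnip3, Pfkfb4, Car9 and Kdm3a (y axes) against the mean of 12 adipocyte markers (x axes), all as log2 signal relative to the array's 75th percentile, 1 point per tumour, with colour for the group and shape for the slide. Bnip3 and Pfkfb4 rise to the right (r = 0.72 and 0.80) while Car9 and Kdm3a fall (both -0.72), and the isolated leftmost point is B6 replicate 3 at -2.33.

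Slides were compared as a technical batch, with 4 B6 and 4 Wsh arrays on slide 1 and 4 B6 and 3 Wsh arrays on slide 2. No member passed the test between slides (0 of 32 in limma, against 0.0313% of all genes), and 2 had an unadjusted p under 0.05, against 8.49% of all genes. These were P4ha1 (slide 2 minus slide 1 -0.39, SE 0.17) and Slc16a3 (-1.0, SE 0.45). The difference between Wsh and B6 was not shown to depend on the slide for any member (0 of 32, against 0.00895% of all genes), while 4 had an unadjusted p under 0.05, against 5.43% of all genes. Vegfa had a difference of 0.21 (SE 0.37) on slide 1 and of -1.06 (SE 0.33) on slide 2, an interaction of -1.27 (SE 0.52, limma adjusted p = 0.819). Hk2, P4ha2 and Pfkfb4 were the other three, with interactions of -1.02, -0.77 and -0.67. Within slide 1, 3 members (P4ha1, P4ha2 and Pfkfb4) had an unadjusted p under 0.05 between the groups, against 8.06% of all genes, and within slide 2, 1 member (Vegfa), against 7.08%. Slc16a3 had a difference of 1.37 (SE 0.63) on slide 1 and of 0.03 (SE 0.46) on slide 2, an interaction of -1.34 (SE 0.86, limma adjusted p = 0.971).

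The count was also 0 at the level of single probes. Of the 78 probes, 69 were kept and 0 passed in limma over all 34349 kept probes, against 114 probes in all (0.332%). None had an unadjusted p under 0.05, against 11.1% of all probes, and 27 differences were above 0 and 42 below. Kept probes of the same gene disagreed in sign in 11 genes. Among these, the 5 Pdk1 probes ran from -0.22 to 0.32 and the kept Pfkp probes from -0.02 to 0.33. The 4 Vegfa probes gave -0.35, -0.13, -0.03 and -0.01, and the 7 Gapdh probes ran from -0.32 to 0.01. The 3 Aldoc probes, -0.39, -0.39 and -0.24, and the 2 Car9 probes, -0.32 and -0.37, were all below 0. Of the 9 probes not kept, a Pgk1 probe lying on the strand opposite to the gene (chrX:103398776-103398835) was well above background on 3 of 15 arrays. For 15 members a single kept probe was the only measurement, 4 of them (P4ha2, Slc16a3, Pfkfb4 and Pgk1) having a second probe that was not kept.

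The other genes of these pathways, from lists drawn up beside the members, also gave no call. Of the 13 genes of the HIF machinery 0 passed, against 0.336% of all genes. Of their differences 2 were above 0 and 11 below, against 10768 and 11576 over all genes, with a median of -0.05. This split was not tested. The largest moderated t belonged to Siah2, a ubiquitin ligase of the Egln enzymes (lowest, median and highest 1.04, 1.26 and 1.53 in B6 and 0.79, 0.97 and 1.56 in Wsh, difference -0.23, SE 0.12, limma adjusted p = 0.521). Hif1a, the oxygen-regulated subunit, differed by -0.12 (SE 0.11) and its partner Arnt by -0.10 (SE 0.12). Among 36 further hypoxia response genes 0 passed and 4 had an unadjusted p under 0.05, about the share of all genes (10.4%), with 19 above 0 and 17 below. Gys1, muscle-type glycogen synthase, had -0.50, -0.04 and 0.36 in B6 and -0.04, 0.64 and 1.01 in Wsh (difference 0.55, SE 0.18, limma adjusted p = 0.292). The Wsh median of Gys1 lay above every B6 tumour, while the lowest Wsh tumours fell within the B6 range. Without the 5 arrays high in skeletal muscle transcripts the difference of Gys1 was 0.65 (SE 0.24, limma adjusted p = 0.491). The growth factor subunit Pdgfb differed by 0.44 (SE 0.17) and the ubiquitin ligase component Wsb1 by 0.24 (SE 0.10), and neither passed (limma adjusted p = 0.378 and 0.444). The fourth was Selenbp1, named after its values were seen, with a difference of -0.39 (SE 0.18, limma adjusted p = 0.470).

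Of 35 other glycolysis and pyruvate genes 29 were tested and 0 passed, with 19 above 0 and 10 below and 3 at an unadjusted p under 0.05, again about the 10.4% of all genes. Slc16a1, the monocarboxylate transporter MCT1, had 0.44, 0.72 and 1.43 in B6 and 0.68, 1.21 and 1.48 in Wsh (difference 0.41, SE 0.15, limma adjusted p = 0.339), and Pdk2 differed by -0.28 (SE 0.12, limma adjusted p = 0.412). Pgam2, the muscle isozyme of phosphoglycerate mutase, had a difference of 3.22 (SE 1.33, limma adjusted p = 0.412), and Eno3, the muscle enolase, named after its values were seen, of 1.60 (SE 0.77). Without the 5 arrays high in skeletal muscle transcripts these became 0.29 and -0.02. Those arrays were picked by skeletal muscle markers, so the choice itself shapes the values of muscle isozymes. The part of muscle tissue in these differences was not tested. The ubiquitous isozymes Pgam1 and Eno1 had differences of -0.0054 and -0.0018 over all arrays.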

How the data were processed

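Total RNA of whole tumours, extracted with a lipid tissue kit and labelled with Cy3 per the labels' protocols, was hybridised to 1-colour Agilent arrays. Intensity values were made by the authors with Agilent Feature Extraction 10.7.3.1, per the file headers, as processed signals that are background-subtracted and detrended but not normalized between arrays. The authors also deposited log2 values, which follow the rank of signal minus background, with a median of 8.61 on the first B6 array; their background step, normalization and centring being not given in the sources used here, they served as an alternative. The submitters' processing notes name limma.

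Control spots and spots flagged as outliers were removed, repeat spots of 1 probe averaged, and log2 of the processed signal taken minus log2 of the array's 75th percentile. No value of a member's probe was saturated. The filter required a probe to exceed background clearly on 7 or more of the 15 arrays and left 34349 probes of 22344 genes; the brightest remaining probe on average stood for its gene. Gene names came from RefSeq's table through the accession for 32994 probes, the symbol for 10224 and a synonym for 520, and stayed as in the files for 12867. Probe coordinates are those of the files (mm9), with no exon or UTR annotation for mm9 used here. Groups were compared with lmFit and eBayes in limma 3.58.1 (R 4.3.3), with Benjamini-Hochberg adjustment over all genes and a threshold of 0.05. Correlations used 100000 permutations over the 15 arrays, two-sided, adjusted over all genes with complete values, in 3 families (Pgk1, adipocyte mean, luminal mean), with numpy 2.4.6. On simulated data with 22344 genes the comparison of Wsh with B6 recovered 80% of 100 genes changed by 1 on the log2 scale and 94% of 100 changed by 2, and called 0.0452% of unchanged genes.

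The members and lists were chosen with earlier results of these data known. All members are named, and described in full are the 8 with the largest absolute moderated t and the 8 with the largest SD within groups; of each other pathway list the 3 with the largest absolute t are named. Alternatives were other background corrections, scalings, filters, probe rules, slides, blocks, covariates and left-out arrays.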

Additional observations from a re-analysis of the deposited data

Results flagged for a closer look

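In 7 of the 64 groups of values (32 genes in B6 and in Wsh) 1 tumour stood apart from the rest of its group by Dixon's criterion. By chance alone the criterion flags about 5% of groups of independent values. The groups here share arrays, and the share flagged over all genes is not given, so an excess in the members is not shown. Wsh replicate 2 accounted for 4 of the 7 groups. Its Ankrd37 value was -0.2899 where the next highest Wsh tumour had -1.859, its P4ha2 value 1.315 where the next had 0.7285, its Tpi1 value 4.607 where the next had 4.096, and its Pgam1 value 4.335 where the next had 3.763. Wsh replicate 1 had the lowest Ddit4 value of its group, 3.406 where the next had 4.36. In B6, replicate 8 was low in Hk1 at 5.305 where the next had 5.715, and replicate 5 was high in Aldoa at 6.615 where the next had 6.178.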

How the results depend on the processing

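No member passed the threshold in any of the 29 other settings, with a lowest limma adjusted p of 0.209, and 923 of 928 member differences moved by less than 1 SD within groups. The others were Vegfa (-1.06), P4ha2 (-0.17), Hk2 (-0.59) and Pfkfb4 (-0.05) on slide 2 alone and P4ha2 (0.60) on slide 1 alone. The sign of the difference was the same in every setting for 11 members and turned in at least 1 for 21. Members with an unadjusted p under 0.05, 0 as reported, numbered 3 on slide 1 alone (8.06% of all genes), 1 on slide 2 alone (7.08%), 4 with skeletal muscle and adipocyte covariates (13%), 4 with array weights (14.8%) and 0 to 3 with an array left out. The 4 with covariates were Ankrd37 (0.69), Ndrg1 (0.43), Ddit4 (0.39) and Ero1l (0.26), with limma adjusted p from 0.286 to 0.364. The count over all genes, 75 as reported, was 48 after median scaling, 25 with no filter, 4 on slide 1 alone, 1 on slide 2 alone, 128 with covariates, 25 without the arrays high in skeletal muscle and 187 with array weights. It ran from 25 (without B6 replicate 5) to 76 with an array left out, and moved by over 1.5 times without any 1 of the arrays except B6 replicate 7 and Wsh replicates 1 and 5. Same-numbered samples were not treated as pairs in the reported fit. Their deviations correlated between -0.24 and 0.21, which cannot exclude a pairing, since no differently numbered samples were set beside them. The replicate block gave 15 calls and 0 members. The slide test's 7 calls became 4 with normexp, 11 with quantile normalization and 0 with median scaling. Relations to Pgk1, 10 unadjusted, became 18 with median scaling (36.5% of all genes) and 6 to 13 with an array left out, and those past the threshold, 0, became 8 with median scaling (9.56%) and 1 with group means subtracted (0.0403%). Those to the adipocyte mean, 9, became 14 with median scaling (21.4% of all genes) and 15 with group means subtracted (14.7%). These relations numbered 10 with normexp, 6 with quantile normalization, 7 in the deposited log2 values and 1 to 12 with an array left out. That to the luminal mean, 1, became 0 with normexp, 0 with quantile normalization, 0 in the deposited log2 values, 15 with median scaling (30.3% of all genes), 4 with group means subtracted (3.53%) and 0 to 5 with an array left out. The cause of these shifts was not tested. The self-test covers log2 changes of 1 and 2 pooled over genes drawn at random, with values simulated independently for each gene. It gives no recovery for members as variable as Car9, whose changes are not bounded here beyond their intervals.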
